A study of Mus musculus with 5 samples.

Results

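Coding promoter regions with an acetylated-histone peak in both WT libraries and in no TPdh-/- library were examined. The members were chosen by the peak calls themselves: the peaks of 5 lists were merged wherever they shared at least 1 bp, and a merged region was kept if a peak of each WT list and no peak of a TPdh-/- list fell in it, and if it lay within 3000 bp of the transcription start site of a protein-coding transcript of the GRCm38 mouse genome. This gave 450 regions of the 18410 merged regions, next to 510 protein-coding genes. The counts of members are therefore a description of the calls and carry no test. ChIPseq was done on CD8+ memory T cells made in culture (TM cells), for which the paper gives splenic T cells as the source. The methods make TM cells from OT-I T cells (a T cell receptor transgene that recognises an ovalbumin peptide). These were activated for 3 days with OVA peptide and cultured for 4 days with IL-15. Whether the cells of these libraries were OT-I is not stated in the paper. The 2 WT libraries carry the label wildtype, and the 3 libraries labelled PDH_Mutant come from TPdh-/- mice, a cross of B6.129P2-Pdha1tm1ptl/J mice with CD4-Cre mice in which Pdha1 is deleted in cells that have expressed the CD4 promoter, that is in CD4+ and CD8+ T cells alike. Male and female mice of 8 to 12 weeks were used in the study. The sex and the animal behind each library were not given, nor whether libraries of a genotype came from separate animals, so the spread between libraries may be technical. The antibody (ab1191) is given in the methods as one to acetyllysine on histones in general, but in the sample descriptions as acetyl K18.

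The pyruvate dehydrogenase complex (PDC) turns pyruvate into acetyl-CoA inside mitochondria, and acetyl-CoA is the acetyl donor of the enzymes that acetylate histones. Acetylated histones flank the start sites of active genes, where the acetyl group loosens the contact of the nucleosome with DNA and is bound by reader proteins with bromodomains or YEATS domains. Many start sites of broadly expressed genes lie in CpG islands, stretches in which the CpG dinucleotide has not been lost from the mouse genome.

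The upstream sequences of the members with the strongest WT peaks are shown because they show what kind of promoter carried a peak in WT alone, and 2 strong members with little CpG are set beside them. Each runs 5′ to 3′ on the strand of its gene and ends at the base before the start site, on GRCm38, with CpG dinucleotides in capitals. The positions are chr17:24479079-24479228 on the minus strand for Mlst8, chr5:114813977-114814126 on the minus strand for 1500011B03Rik, chr10:117224508-117224588 on the minus strand for Yeats4, chr5:76529161-76529310 on the plus strand for Exoc1 and chr17:56256660-56256809 on the plus strand for Fem1a. The promoters low in CpG are those of Dnah17 at chr11:118130635-118130784 on the minus strand and of H2-Oa at chr17:34092190-34092339 on the plus strand. The stretch of Yeats4 is 81 bases long since an annotated exon lies further upstream, and the others are 150 bases.
Mlst8: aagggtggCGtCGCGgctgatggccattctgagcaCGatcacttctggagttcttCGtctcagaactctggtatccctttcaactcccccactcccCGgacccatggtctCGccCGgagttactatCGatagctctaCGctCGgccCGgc
1500011B03Rik: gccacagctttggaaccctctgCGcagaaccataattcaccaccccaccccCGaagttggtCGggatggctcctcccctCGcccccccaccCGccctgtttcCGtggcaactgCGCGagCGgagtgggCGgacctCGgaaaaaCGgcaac
Yeats4: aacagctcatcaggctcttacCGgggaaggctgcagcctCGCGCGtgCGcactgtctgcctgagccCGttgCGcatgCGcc
Exoc1: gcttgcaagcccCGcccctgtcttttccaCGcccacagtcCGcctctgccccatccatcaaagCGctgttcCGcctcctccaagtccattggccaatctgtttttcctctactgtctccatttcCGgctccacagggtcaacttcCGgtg
Fem1a: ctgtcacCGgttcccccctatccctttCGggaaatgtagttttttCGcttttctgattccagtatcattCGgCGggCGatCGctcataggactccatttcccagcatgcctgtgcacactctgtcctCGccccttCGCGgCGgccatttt
Dnah17: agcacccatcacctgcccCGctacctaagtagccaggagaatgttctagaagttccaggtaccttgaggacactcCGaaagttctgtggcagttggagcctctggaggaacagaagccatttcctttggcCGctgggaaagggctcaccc
H2-Oa: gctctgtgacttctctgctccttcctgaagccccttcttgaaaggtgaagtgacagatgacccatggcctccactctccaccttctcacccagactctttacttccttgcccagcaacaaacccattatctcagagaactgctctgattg
There were 12 CpG in the stretches of Mlst8 and of 1500011B03Rik, 11 in that of Fem1a, 8 in that of Yeats4 and 7 in that of Exoc1. The stretch of Dnah17 held 3 and that of H2-Oa held 0. The Yeats4 stretch contains GCGCATGC, the letters bound by NRF1, and the Exoc1 stretch contains the ETS letters CCGGAAG on its minus strand.

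The 450 members were 5.39% of the 8343 merged regions that lay within 3000 bp of a coding start site, and 10.1% of the 4446 such regions with a peak in both WT libraries. By gene, 510 of 9166 coding genes with a region in any library had a member, or 5.56%, and of the 5127 genes with a region of both WT libraries the share was 9.95%. No coding promoter region had a peak in all 3 TPdh-/- libraries and in neither WT library. The lists differ in length, with 8099 and 4525 coding promoter regions in WT replicates 1 and 2 and 2760, 2985 and 5131 in TPdh-/- replicates 1, 2 and 3. A peak that was not called may be present below the calling threshold, and the reads behind each list were not used here, so a missing call cannot be told apart from a shallower library.

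Membership depended on which list lacked a call. WT replicate 1 alone had a peak in 2364 coding promoter regions, and all 5 libraries had one in 1924. Of the 998 regions called in both WT and 1 TPdh-/- library, 894 owed that call to TPdh-/- replicate 3, 53 to replicate 1 and 51 to replicate 2. WT replicate 1 and TPdh-/- replicate 3, the longest list of each genotype, shared 767 regions that no other library had. Without TPdh-/- replicate 3 there were 1343 members, and without WT replicate 2 there were 2814. When each list was limited to its 4920 strongest peaks, the length of the shortest list, 129 regions met the rule and 68 regions had a peak in all 3 TPdh-/- and in neither WT library. Of the 450 members, 77 or 17.1% remained in that setting, among them all 15 with the highest ranks. The limit gives no member a TPdh-/- peak, so which members remained followed from their WT ranks alone.

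**Figure D1:**
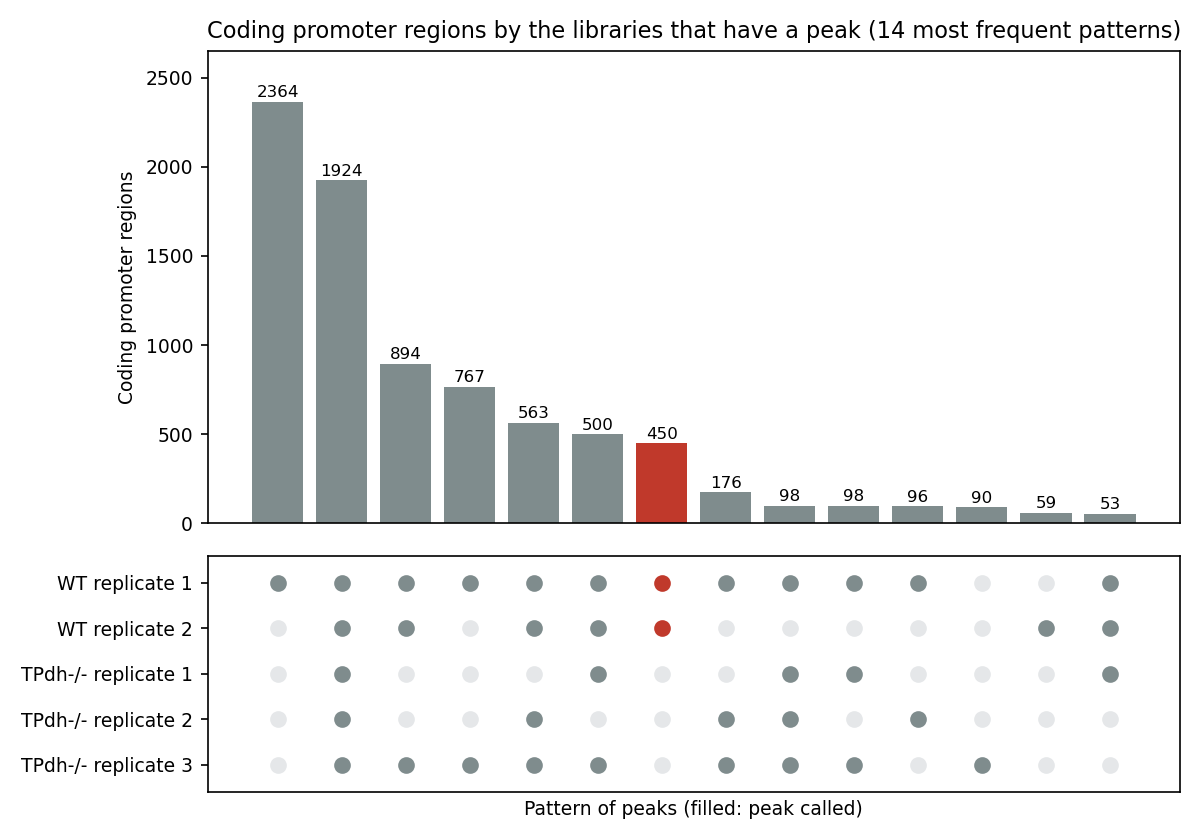
Number of coding promoter regions (y axis) for each of the 14 most frequent patterns of peak calls, with filled dots below each bar for the libraries that had a peak. The red bar marks the 450 regions of both WT and no TPdh-/- library, between 500 regions that lacked only TPdh-/- replicate 2 and 176 that lacked WT replicate 2 and TPdh-/- replicate 1.

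Members were ranked within each WT list by the −log10 q of the peak that MACS2 gave, where q is the p of the peak after correction over the genome. The percentile is the share of the list's own peaks that are weaker. The median member stood at percentile 51.6 in WT replicate 1 and 34.9 in WT replicate 2, while regions of all 5 libraries stood at 88.7 and 78.1. The median −log10 q of the members was 4.11 and 2.43, against 9.61 and 5.31 for regions of all 5 libraries. Fold enrichment over the background of MACS2 differed less, with medians of 2.68 and 2.63 for the members and 2.98 and 2.93 for regions of all 5 libraries. The members' WT peaks were thus weaker in significance than those of promoters called throughout, and both measures come from the lists that chose the members.

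The WT ranks differed by the number of TPdh-/- libraries that had a peak, with the members lowest. The median of the mean WT percentile was 41.1 with no TPdh-/- library, 55.3 with 1, 66.0 with 2 and 82.8 with all 3. When the 4446 regions of both WT libraries were divided into 10 bins of equal size by that mean percentile, members made up 34.9% of the weakest bin, 22.2% of the next and 0.674% of the strongest. Only 17 members lay above percentile 75 in both WT lists, and 33 lay below percentile 25 in both. A −log10 q of at least 5 in both WT lists was reached by 24 members, and a value of at least 2 in both by 282. Across the members, Spearman's rho between the WT percentiles was 0.525 (n = 450 regions, which share 2 libraries), against 0.711 over the 1924 regions of all 5 libraries, and 342 members had the higher percentile in WT replicate 1.

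**Figure D2:**
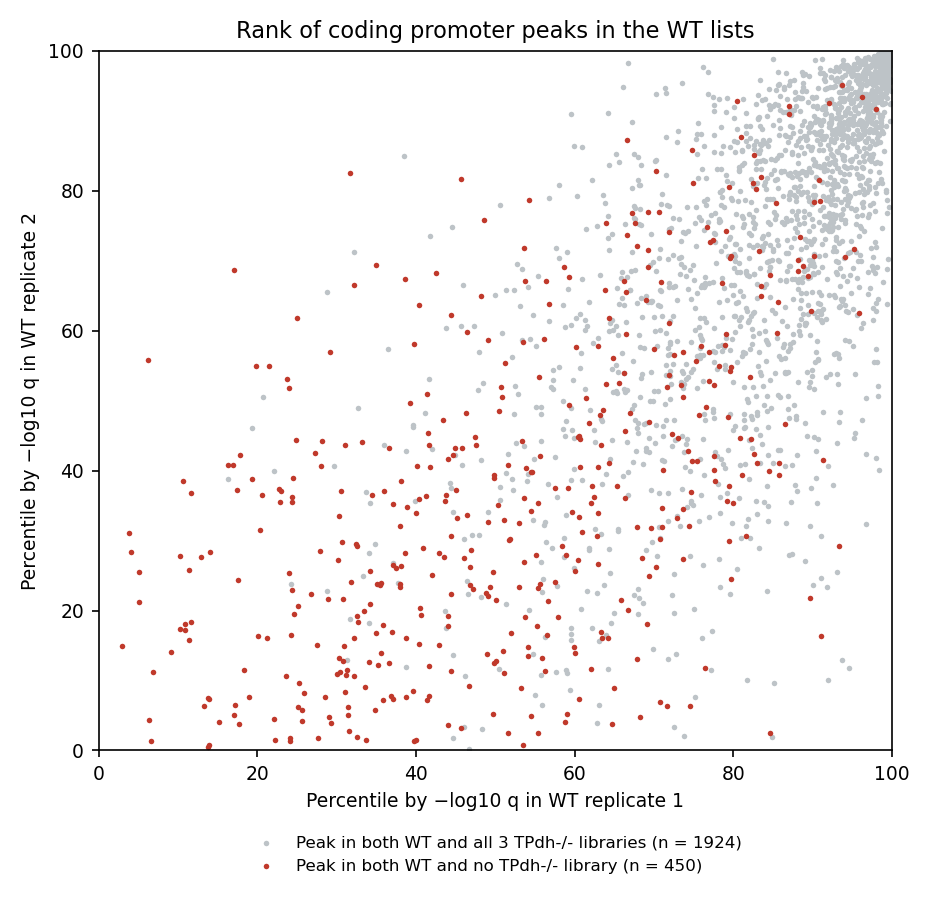
Percentile by −log10 q of each region's strongest peak in WT replicate 1 (x axis) and WT replicate 2 (y axis), for the 450 members (red) and the 1924 regions with a peak in all 5 libraries (grey). Members spread over the plot with medians of 51.6 and 34.9, while the grey regions crowd the upper right corner.

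**Figure D3:**
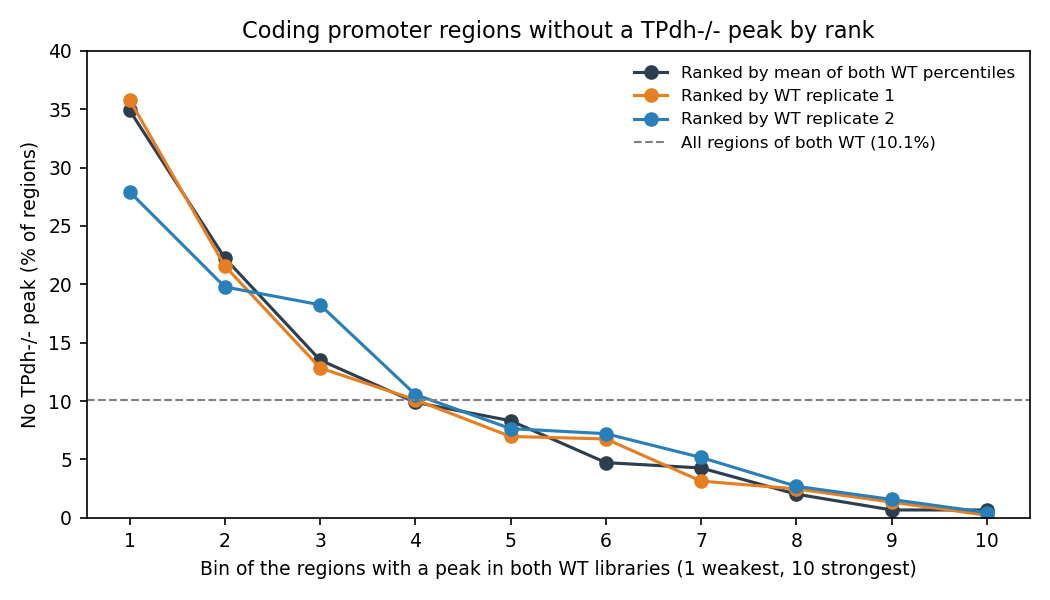
Share of regions without a TPdh-/- peak (y axis, %) in each of 10 bins of the 4446 coding promoter regions of both WT libraries (x axis, weakest to strongest), ranked by the mean of both WT percentiles, by WT replicate 1 or by WT replicate 2. The share falls from 34.9%, 35.8% and 27.9% in the weakest bin to 0.674%, 0.225% and 0.449% in the strongest, and the dashed line is the 10.1% of all these regions.

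The strongest members included an mTOR subunit, an acetyl-lysine reader and a translation initiation subunit. Mlst8, a subunit shared by both mTOR complexes, had peaks of −log10 q 15.8 and 7.69 in the WT lists, at percentiles 98.0 and 91.6, in a region of 933 bp on chromosome 17 from 24478720 to 24479652. The uncharacterised gene 1500011B03Rik followed with 13.6 and 8.22, at percentiles 96.2 and 93.3. Yeats4, whose YEATS domain binds acetylated histones, had 11.5 and 8.88, at percentiles 93.7 and 95.1, and its nearest TPdh-/- peak was 117524 bp away. These 3 regions were high in both WT lists, and each covered its start site.

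Exoc1, a subunit of the exocyst that tethers secretory vesicles, had peaks of −log10 q 10.8 and 7.97 in WT replicates 1 and 2. Rrp15, which acts in processing of ribosomal RNA, had 9.08 and 7.81. For Fem1a, a substrate receptor of a cullin ubiquitin ligase, the values were 9.08 and 7.49. In all 3 the percentile was the higher in WT replicate 2, with 92.1 and 92.6 for Exoc1, 87.0 and 92.1 for Rrp15 and 87.0 and 90.9 for Fem1a. The region of Fem1a ended 106 bp upstream of the start site, and that of Tmem107, a protein of the ciliary transition zone, lay 2153 bp downstream of the nearest coding start site with percentiles of 80.5 and 92.8. Numb, an inhibitor of Notch signalling, stood at 90.8 and 81.5.

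The rest of the 15 strongest comprised Dgcr2, which shares its region with the testis kinase gene Tssk1, the zinc finger genes Zfp35 and Zfp758 with its neighbour Zfp944, Ankrd42, Eif3e, Cdca7l and Lonp2. Their mean percentiles lay between 82.3 for Lonp2, a peroxisomal protease, and 84.7 for Dgcr2. Eif3e, a subunit of the initiation factor eIF3, was higher in WT replicate 1 at 95.2 than in WT replicate 2 at 71.6. Ankrd42 had the reverse order, at 81.0 and 87.6. The CpG observed over expected ratio was highest in Ankrd42 at 1.20 and lowest in Zfp35 at 0.649 among these 15.

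The weakest members were Ikzf2, which encodes the transcription factor Helios, Rapgef1, an exchange factor of the GTPase Rap1, and Kcnab2, a subunit of potassium channels. Their −log10 q lay between 1.147 and 1.81, and their mean percentiles were 3.97, 5.33 and 7.16. Members also differed in how the 2 WT lists placed them. Efcab11 with Tdp1, a DNA repair gene, stood at 84.6 in WT replicate 1 and 2.49 in WT replicate 2, Tmx3 at 91.1 and 16.4, and Pbxip1 at 74.5 and 6.39. In the other direction Dcaf1, a receptor of a cullin ubiquitin ligase, stood at 31.7 and 82.5, the kinase gene Rps6ka3 at 17.1 and 68.6, and Mpp7 at 6.23 and 55.8. For these 6 regions a single WT library supplied most of the rank.

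The limits of the rule passed through similar values. Just inside 3000 bp were Tram1 at 2977 bp, Kcnj16 at 2950 bp and Vamp1 at 2944 bp, and just outside were the WT regions next to Gtdc1 at 3021 bp, Exoc6 at 3045 bp and Stim2 at 3143 bp. Kcnj16 stood at 48.6 and 75.8 and Gtdc1 at 54.1 and 57.6 in WT replicates 1 and 2. On the side of the calls, Pmepa1, Mgst2 and Foxn2 were left out by a single TPdh-/- peak of −log10 q 1.10, 1.12 and 1.14, values below the 1.147 of the weakest WT peak of a member. Of the 998 regions with 1 TPdh-/- library, 188 had a TPdh-/- peak under 2.

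Genes of the PDC itself were among the members. Of 17 genes of the complex, its regulators and pyruvate import, 14 had a coding promoter region in any library, 8 had one in both WT libraries and 4 were members, where the share over all genes with a region of both WT libraries was 9.95%. Pdhx, which anchors the E3 subunit in the complex and shares its region with Apip, stood at percentile 79.7 in WT replicate 1 and 24.5 in WT replicate 2. Pdk1, a kinase that switches the complex off, stood at 68.6 and 27.5, and its nearest TPdh-/- peak was 6090 bp away. Lipt1, which attaches the lipoyl cofactor, stood at 21.4 and 55.0, and Pdhb, the partner of the deleted Pdha1 subunit in E1, at 10.2 and 17.3. Lias, Mpc1 and Mpc2, which make the cofactor and import pyruvate, had a peak in all 5 libraries, and Dlat, the E2 subunit, had one in both WT libraries and in TPdh-/- replicate 3. Pdha1 itself had a peak in WT replicate 1 alone, the longest list, as did Dld, Pdk2, Pdp1 and Pdp2. The 4 members were of middle or low rank, and with lists of equal length 0 of the list remained.

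Of 22 genes that supply acetyl-CoA or coenzyme A by other routes, 17 had a region, 10 had one in both WT libraries and 3 were members, or 17.6% and 30% where the shares over all genes were 5.56% and 9.95%. Slc33a1, which carries acetyl-CoA into the endoplasmic reticulum, was the strongest at 91.3 and 41.5, high in WT replicate 1 alone. Coasy, which completes coenzyme A, stood at 55.2 and 27.9, and Ppcdc, an earlier enzyme of that pathway, at 59.2 and 37.5 in a region 1143 bp from its start site. Acly, which makes cytosolic acetyl-CoA from citrate, had a peak in WT replicate 1 alone, and Acss2, which makes it from acetate, had one in both WT libraries and in TPdh-/- replicates 2 and 3. Slc25a1, the mitochondrial citrate carrier, was called in all 5 libraries.

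Fatty acid oxidation gave 4 members of 20 genes with a region and of 11 with a region in both WT libraries, or 20% and 36.4%, where all genes gave 5.56% and 9.95%. Eci1, Eci2 and Decr1 are enzymes that prepare unsaturated fatty acids for β-oxidation, and Acaa2 is a thiolase that releases acetyl-CoA at the end of a cycle. Eci2 stood at percentile 53.4 in WT replicate 1 and 58.4 in WT replicate 2. The others were weak in WT replicate 2, with 71.6 and 6.38 for Eci1, 67.9 and 13.1 for Acaa2 and 55.9 and 13.3 for Decr1. The trifunctional protein genes Hadha and Hadhb, Acadl and Acsl5 were called in all 5 libraries. With a −log10 q of at least 2 required of every peak, 1 gene of this list remained, and 0 with lists of equal length. Of the tricarboxylic acid cycle, Sdha was a member at 73.7 and 50.5, the 1 of 21 genes with a region. Glycolysis gave Hk1 at 45.04 and 37.3 and Eno1 at 55.4 and 23.2 of 21. Hk1 also had another coding start site with a TPdh-/- peak.

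Enzymes and readers of histone acetylation held 9 members over 3 lists. Over all genes with a region in both WT libraries, 9.95% were members. Of such genes, acetyltransferases gave 2 of 27 or 7.41%, and deacetylases with their complexes 3 of 16 or 18.8%. Genes listed as acetyl-lysine readers gave 4 of 18 or 22.2%. Kat8, an acetyltransferase of histone H4, stood at 85.7 and 41.05, and Gtf3c4, a TFIIIC subunit with acetyltransferase activity, at 82.1 and 53.4, out of 45 acetyltransferase genes with a region. Of 37 genes of deacetylases and their complexes, Brms1l stood at 78.9 and 58.0, Hdac3 at 64.8 and 3.83 and Sap18 at 60.6 and 7.40. Of 29 genes listed as acetyl-lysine readers, Yeats4 was followed by Baz1a at 64.4 and 41.1, Zmynd11 at 41.5 and 50.9 and Smarca2 at 5.07 and 21.2. The list holds proteins with bromodomains and similar domains, and such a domain need not bind acetyl-lysine in each of them. Baz1a and Smarca2 had another coding start site with a TPdh-/- peak, while Yeats4 and Zmynd11 had none. Ep300, Kat2b, Kat5, Brd2 and Hdac2 were called in all 5 libraries.

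Translation factors gave 9 members of 68 genes with a region and of 40 with a region in both WT libraries, or 13.2% and 22.5%, beside 5.56% and 9.95% of all genes. Besides Eif3e these were led by Eif6, which keeps the ribosomal subunits apart, at 82.9 in WT replicate 1 and 80.2 in WT replicate 2, Eif4b, a cofactor of the initiation helicase, at 90.2 and 70.6, and the kinase gene Eif2ak1 at 69.3 and 76.9. Eif2s2, Eif2b1, Eif3m, Eif3h and Eif1a completed the group, with mean percentiles from 23.7 to 62.5. With lists of equal length 5 genes of the list remained. Of 77 genes of cytosolic ribosomal proteins with a region, 4 were members, led by Rpl36 at 72.5 and 56.5 and Rps3 at 63.6 and 48.6.

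The mTOR list gave 4 members of 41 genes with a region and of 22 with a region in both WT libraries, or 9.76% and 18.2%, beside the same 5.56% and 9.95%. Mlst8 apart, they were weak. Akt1s1, an inhibitory subunit of mTOR complex 1, stood at 32.5 and 29.2, Sesn1, a sestrin that restrains mTOR complex 1, at 32.6 and 19.2, and Prr5l, a partner of mTOR complex 2, at 11.3 and 25.8. Akt1s1 and Sesn1 each had another coding start site with a TPdh-/- peak. Among amino acid transporters 1 of 16 genes with a region was a member, Slc7a5, which imports leucine, at 59.3 and 67.6.

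Genes that mark the T cell were checked against the label. Of 10 marker genes set for CD8 T cells, 9 and 7 had a coding promoter region in WT replicates 1 and 2. In TPdh-/- replicates 1, 2 and 3 the numbers were 3, 5 and 7. The 10 include genes of all T cells, such as Cd3e and Lck, so these counts do not tell CD8 from CD4 T cells. Of the CD8 coreceptor genes among them, Cd8b1 had a region in all 5 libraries and Cd8a in WT replicate 1 alone. None of 6 myeloid and 2 NK cell markers had one in any library. The list of CD8 T cell surface markers held 0 members of 10 genes with a region in both WT libraries, a number at which the share over all genes comes to about 1 gene. Proximal T cell receptor signalling held 6 members of 37 genes with a region and of 27 with a region in both WT libraries, or 16.2% and 22.2%, beside 5.56% and 9.95% of all genes. Csk, the kinase that restrains Lck, stood at 54.7 and 39.8, Dgkz, which removes the messenger diacylglycerol, at 44.97 and 43.3, Themis at 44.4 and 22.4 and Fyb, an adaptor of integrin activation, at 19.3 and 38.8. Fyn and Plcg1 were weaker. The region of Themis covered its start site, and the other regions did not. Their nearest coding start site lay 1844 bp away for Csk, 1778 bp for Plcg1 and 1230 bp for Dgkz. For Fyn it was 631 bp away and for Fyb 69 bp. Fyb, Fyn and Plcg1 also had another coding start site with a TPdh-/- peak, and with lists of equal length 0 genes of the list remained.

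Of the marker genes of CD4 T cells, Cd4 and Foxp3 were members. The region near Cd4, the coreceptor that CD8 T cells silence, was 785 bp long, lay 2092 bp downstream of the start site and stood at 19.9 in WT replicate 1 and 55.0 in WT replicate 2. The region of Foxp3, the factor of regulatory T cells, was shared with Ppp1r3f, spanned 3490 bp on chromosome X and stood at 25.1 and 61.8. Zbtb7b, the other CD4 lineage gene of the list, had a peak in WT replicate 1 alone. Both regions ranked higher in WT replicate 2, and the share of CD4 T cells in each culture was not tested.

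Other lists held no member, where 9.95% of all genes with a region in both WT libraries were members. IL-15 receptor and JAK-STAT genes gave 0 of 18 with a region in both WT libraries, cytokine receptors 0 of 13, memory-associated transcription factors 0 of 10, cytotoxic effector genes 0 of 7, inhibitory and costimulatory receptors 0 of 8, MHC class I presentation 0 of 14, interferon-stimulated genes 0 of 20 and the proteasome 0 of 30. Of these groups, all 5 libraries called 8 IL-15 and JAK-STAT genes, 8 cytokine receptor genes, 8 memory-associated factors and 4 cytotoxic genes. They also called 2 inhibitory or costimulatory receptors, 10 MHC class I genes, 12 interferon-stimulated genes and 14 proteasome genes. Over all genes, all 5 libraries called 2280 of the 5127 with a region in both WT libraries, and these list counts are not read as a result. Among effector-associated transcription factors Runx1 was a member at 25.1 and 20.7, and it had another coding start site with a TPdh-/- peak. Among homing genes Ccr7, the receptor for entry to lymph nodes, was a member at 25.9 and 8.28. These lists are short, the counts of 0 are not read as a result about their genes, and no list was tested for enrichment.

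The larger lists lay on both sides of the 9.95% share over all genes with a region in both WT libraries. Zinc finger genes gave 23 members of 167 with a region in both WT libraries, or 13.8%. After Zfp35, Zfp758 and Zfp944, the strongest was Zfp113 at 88.4 and 73.4. Genes of RNA polymerase, Mediator, Integrator and the general transcription factors gave 9 of 66, or 13.6%. They were led by Gtf3c4 and by Polr3gl, a subunit of RNA polymerase III, at 79.6 and 54.2. Ubiquitin genes gave 12 of 120 or 10%, led by Rnf135 at 83.5 and 66.4. Genes of vesicle transport gave 8 of 146 or 5.48%, led by Exoc1, Snap47 and Sec31a. Splicing factors gave 4 of 89 or 4.49%, with Crnkl1 at 76.7 and 74.8. Mitochondrial ribosomal proteins gave 1 of 26 or 3.85%, Mrps21 at 89.7 and 21.8.

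Genes of the cilium gave 8 members of 31 with a region in both WT libraries, or 25.8% where all genes gave 9.95%. Tmem107 was followed by Cfap61, which shares its region with the splicing gene Crnkl1, by Dnah17, an axonemal dynein, at 53.6 and 71.8, and by Ift20, which shares its region with Tnfaip1, at 66.2 and 54.0. Of DNA replication genes 5 of 36 were members, led by Tipin at 82.2 and 44.5 and Rrm1, a subunit of ribonucleotide reductase, at 62.9 and 26.7. The respiratory chain gave 3 of 45, with Ndufs8, a subunit of complex I, at 79.1 and 74.3 and Atp5o, of the ATP synthase, at 84.5 and 39.9. The chaperone gene Ppib stood at 89.5 and 67.8, and the purine salvage gene Hprt at 74.9 and 85.8. In all, 172 of the 510 genes were on a list and 338 on none, and 40 of 53 lists held a member.

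**Figure D4:**
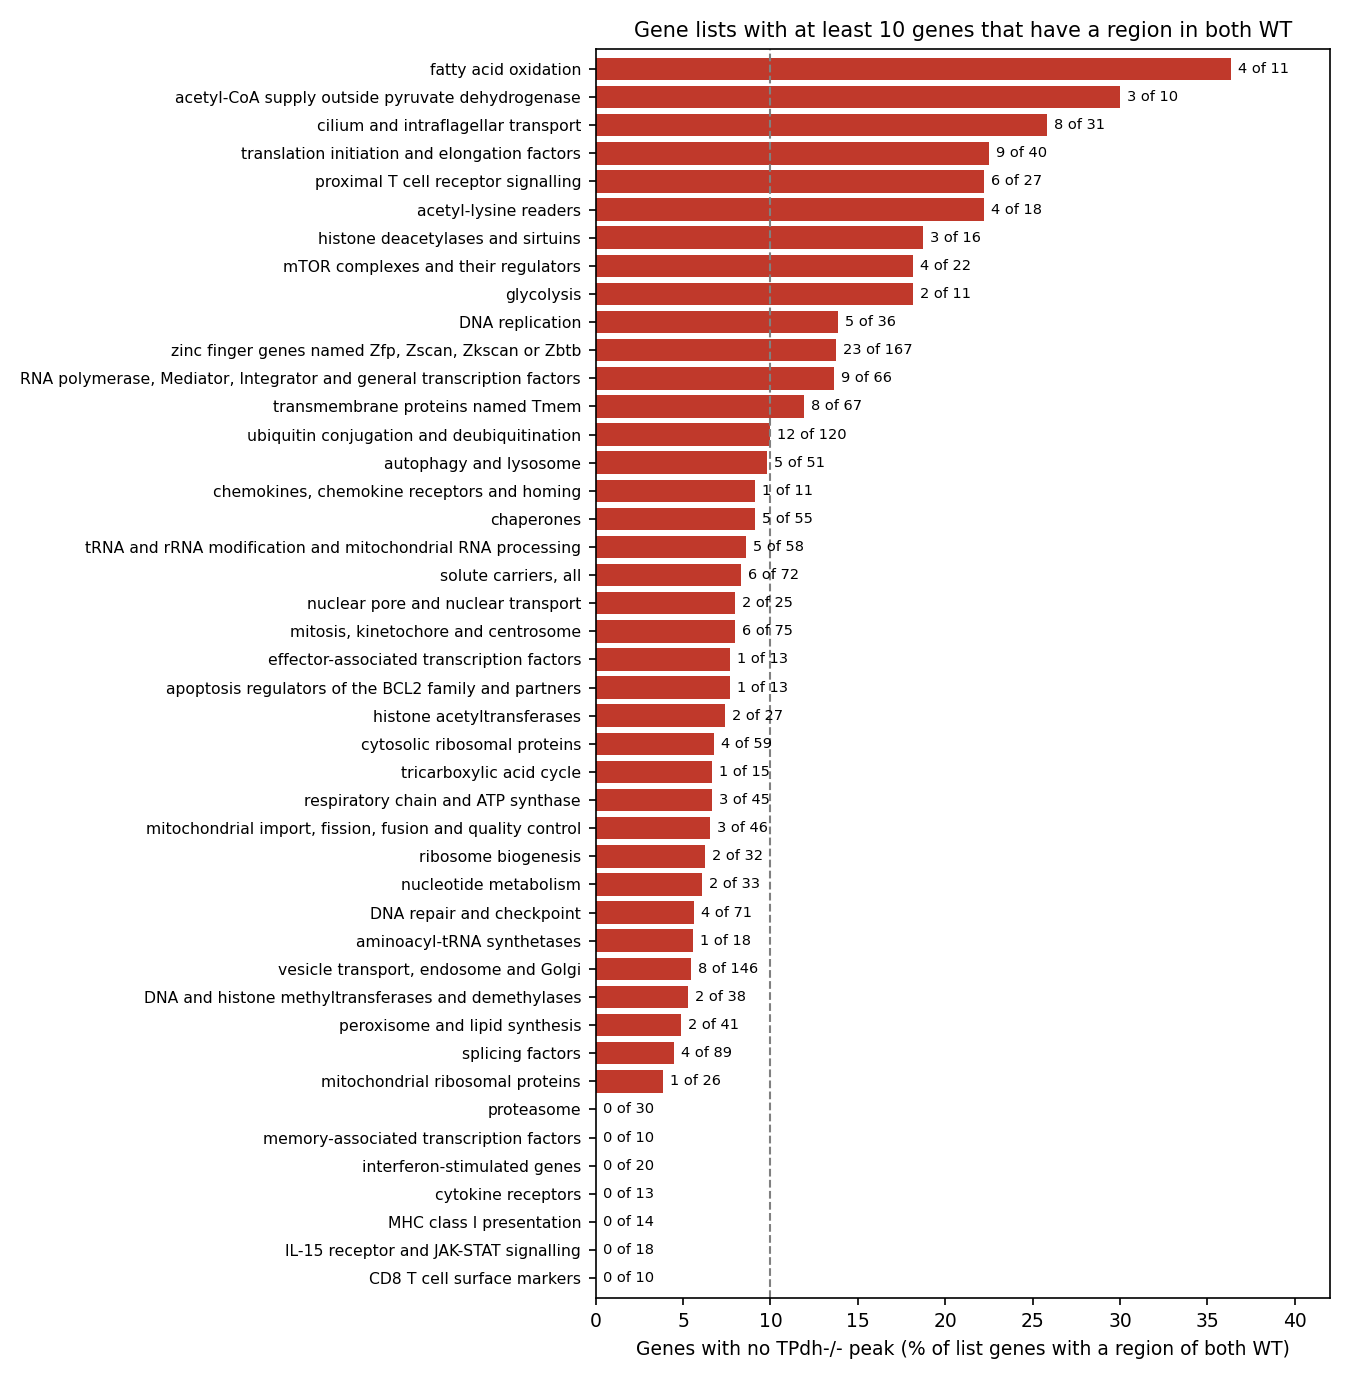
Share of genes with a member (x axis, % of the list's genes that had a region in both WT libraries) for the 44 lists with at least 10 such genes, with the counts beside each bar and a dashed line at the 9.95% of all genes. Fatty acid oxidation has the longest bar, with 4 of 11 genes, and 7 lists stand at 0.

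The position of the members relative to the start site was compared with that of promoters called throughout. A coding start site was covered by 340 of the 450 members, or 75.6%, and by 91.7% of the 1924 regions of all 5 libraries. Of the 110 members off a start site, 69 lay downstream and 41 upstream of it, and 43 members lay over 1000 bp away. The median width was 1093.5 bp for the members and 1546 bp for the regions of all 5 libraries, and the widest were those of Rabggta at 3691 bp, Trabd at 3500 bp and Ppp1r3f with Foxp3 at 3490 bp. Within the members, the share that covered a start site was 66.1% in the weakest of 4 rank bins and 87.6% in the strongest, so position moved with rank. Divergent gene pairs, with start sites within 1000 bp on opposite strands, made up 36 members or 8% and 13.1% of the regions of all 5 libraries.

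TPdh-/- peaks were present in the surroundings of the members. The nearest one lay 34199 bp away at the median and 1744 bp at the least, at Tmem39b. It was within 3000 bp of 6 members, within 10000 bp of 57 and within 50000 bp of 281. Of the 510 genes, 48 had another coding promoter region with a TPdh-/- peak and 462 had none. A few members were neighbours within 50000 bp, and the largest such group was Eci1, Pgp and Mlst8, 3 regions on chromosome 17 between 24426373 and 24479652.

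Members were spread over the autosomes and chromosome X. Of 71 coding promoter regions on X with a peak in both WT libraries, 19 or 26.8% were members, against 431 of 4372 or 9.86% on the autosomes, where the share ranged from 6.41% on chromosome 14 to 14.3% on chromosome 19. Hprt, Fam120c at 79.5 and 80.6, Phka2, a subunit of phosphorylase kinase, at 88.1 and 70.0, and Emd, which encodes the nuclear envelope protein emerin, at 84.7 and 68.0 were the strongest of them. Regions on X made up 2.07% and 1.61% of the coding promoter regions in WT replicates 1 and 2 and 1.01%, 0.771% and 1.40% in TPdh-/- replicates 1, 2 and 3. Regions on X of both WT libraries also ranked lower, with a median mean percentile of 54.2 against 69.3 on the autosomes, and their members stood at 43.4 against 41.05. Coding promoter regions on chromosome Y numbered 4 and 3 in WT replicates 1 and 2 and 0, 1 and 3 in TPdh-/- replicates 1, 2 and 3, so libraries with peaks on Y were present in both genotypes. The sex of the mice was not given, and its part in the share on X was not tested. With autosomes alone 431 members remained.

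The sequence around the start site was not part of the rule. In the 300 bp centred on the nearest coding start site, the CpG observed over expected ratio, the count of CpG relative to what the C and G content predicts, had a median of 0.776 in the members. It was 0.804 for regions of both WT and 1 TPdh-/- library, 0.838 with 2 and 0.842 for all 5 libraries, against 0.337 for coding genes with no region and 0.603 for all coding genes. A G and C content over 50% with a ratio over 0.6, the usual mark of a CpG island, was met by 68.4% of the members, 75.4% of regions of all 5 libraries and 29.9% of genes with no region. Ratios under 0.4 were found in 78 members, or 17.3%, and in 12.1% of the regions of all 5 libraries. Most members were thus promoters of the CpG-rich kind shown above for Mlst8 and Fem1a, and promoters like those of Dnah17 at 0.252 and H2-Oa at 0.277 were a minority.

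CpG content also differed by rank inside the members. The median ratio was 0.673, 0.722, 0.827 and 0.813 from the weakest to the strongest of 4 bins by mean percentile, so it was not highest in the strongest bin. The share that met the island criterion was 51.8% in the weakest of these bins, then 62.8%, 74.1% and 85.0% in the strongest. The strongest members thus stood above the 75.4% of regions of all 5 libraries and the weakest below it, and the part of rank in the difference of the medians was not tested.

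**Figure D5:**
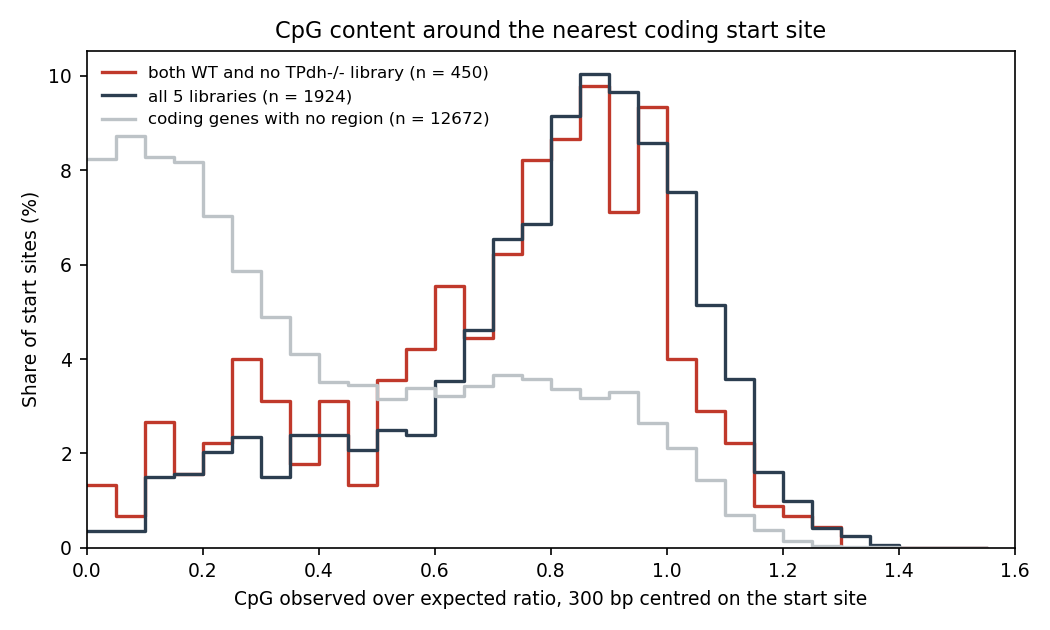
Distribution of the CpG observed over expected ratio in the 300 bp centred on the start site (x axis) as a share of start sites (y axis, %), for the 450 members (red), the 1924 regions of all 5 libraries (dark) and 12672 coding genes with no region (grey). The first 2 peak at a ratio near 0.9 with medians of 0.776 and 0.842, and the grey line is highest at ratios under 0.4, which hold 55.3% of its genes.

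Short motifs were searched on both strands of the same windows. The ETS letters CCGGAAG were present at 18.2% of the members, 22.4% and 23.7% of regions with 1 and 2 TPdh-/- libraries, 25.2% of regions of all 5 libraries, 11.5% of all coding genes and 4.50% of genes with no region. The SP/KLF letters GGGCGG were present at 63.3% of members, 62.3% of regions of all 5 libraries and 46.3% of all coding genes. CCAATC, bound by NF-Y, was found at 17.8%, 18.04% and 16.8% of these sets in turn, and GCGCATGC, bound by NRF1, at 4.22%, 4.52% and 3.27%. The T cell motifs were rare, with the RUNX letters TGTGGTT at 2.67%, 4.002% and 4.48% and the AP-1 letters TGANTCA at 4.44%, 3.85% and 5.81%. TATAAA was found at 4.89%, 5.61% and 10.5%, the E-box CACGTG at 7.78%, 9.30% and 7.36%, the CRE letters TGACGTCA at 2.67%, 4.16% and 2.37%, the YY1 letters AAGATGG at 7.56%, 8.11% and 6.80% and the ZNF143 letters ACTACAA at 4.22%, 3.01% and 3.27%. For SP/KLF, NF-Y and NRF1 the members and the regions of all 5 libraries differed by at most 1 percentage point or so, and a match is a description of the letters and not of a bound factor.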

How the data were processed

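The deposited files hold 1 list of broad peaks for each of 5 ChIPseq libraries. Per the submitters' processing notes and the methods, the authors aligned reads to GRCm38/mm10 with BWA 0.7.17, filtered them with SAMtools 1.15.1 to unique and non-blacklisted reads, and called broad peaks with MACS2 2.2.6 for each library. Each deposited peak has a score (not used), a fold enrichment on a linear scale, and −log10 p and −log10 q, of which −log10 q was used for ranking. No input control was named, and the depth behind each list is unknown, so no interval for counting error is given.

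Peaks were merged, intersected and ranked with Python 3.11.15, numpy 2.4.6, pandas 2.3.3, scipy 1.17.1 and pysam 0.24.0, with start sites of 21829 coding genes from GENCODE M21 and sequence from the RefSeq GRCm38 genome. Where a region lay equally near several start sites of a gene, the most upstream was taken. The strongest peak of a library in a region gave its percentile. On simulated lists every region made for both WT libraries alone was recovered. Their peaks overlapped by construction at isolated start sites, so this checks the code and not the data. With 2 libraries against 3 and members chosen by the calls, no test was run. The members and the gene lists were chosen with earlier results of these data known. Genes named are the 15 strongest and 3 weakest members, the 3 most discordant each way, up to 4 per list, those nearest the limits and the 3 widest. Further genes of those lists, genes called elsewhere that are set beside members, Tmem39b, Pgp and the X-linked members were picked after their values were seen. Upstream sequence was ended at annotated exons and shown for 7 promoters with at least 60 bases left, so that Rrp15 and Zfp748 are without one. Not every marker that was set is reported here. The alternatives tried are given in the closing section.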

Additional observations from a re-analysis of the deposited data

How the results depend on the processing

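The 450 members became 412 with a −log10 q of at least 2 (282 of the 450 among them), 274 with at least 5 (24 of the 450), 129 with lists of equal length, 407 within 1000 bp, 499 with all transcripts of coding genes and 431 on autosomes, and 450 remained without a TPdh-/- peak within 1000 bp. An overlap of 50% of the shorter changes nothing by construction, since each peak lies inside its merged region. A peak required to cover 50% of the region, chosen after seeing the data, gave 507. Leaving out 1 library gave 501 to 2814 members, 566 to 3133 genes, 188 to 1077 genes on lists and 0 to 98 regions of TPdh-/- alone. The highest of these came without WT replicate 2, apart from the 98, which came without WT replicate 1. Median percentiles ranged from 40.96 to 62.2 in WT replicate 1 and from 32.7 to 41.1 in WT replicate 2, the CpG ratio from 0.757 to 0.794 and the share on a start site from 58.7% to 81.2%.

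With −log10 q of at least 5 the genes were 325, the median percentiles 83.3 and 82.9, the CpG ratio 0.826 and the share on a start site 88.3%. With lists of equal length the genes were 147, those on lists 68, the regions of TPdh-/- alone 68, the percentiles 79.7 and 66.9, the CpG ratio 0.820 and the share on a start site 90.7%. That share was 83.5% within 1000 bp. The CpG ratio was 0.745 with all transcripts and 0.686 over 1000 bp. Ranking by fold enrichment gave percentiles of 66.8 and 57.1, and ranking among coding promoter peaks 35.3 and 23.01. The causes of these shifts were not tested. Of 583 list counts under alternatives, 399 stayed within 1.5 times, 64 fell and 120 rose beyond it. No paired analysis was possible because the labels name no pairs of libraries. The unknown depth of each list limits every missing call.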
